A study of Mus musculus with 12 samples.

Results

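The 6 genes described here are Egr1, Egr2, Egr3 and Egr4, which encode the early growth response (EGR) transcription factors, and Nab1 and Nab2, which encode the NGFI-A binding (NAB) corepressors. They were taken by symbol from the 19938 genes with a probe set of a single gene symbol, and each was measured by 1 probe set, so the choice of the probe set with the highest mean left nothing to choose. The family was chosen by its measured values, since it was proposed with the FGF23-against-vehicle differences of Egr1 and Nab2 already known. Their FGF23 values are therefore a description, given with their spread and standard error (SE) and with no p-value.

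RNA of whole kidney from female mice was hybridised to 12 Affymetrix whole-transcript arrays, 4 per group. Wild-type mice, labelled C57BL/6, were killed 1 hour after an intraperitoneal injection of either recombinant FGF23 (500 ng per g body weight) or saline vehicle (100 µl). KL null mice, labelled 129/SvEv/C57BL/6, received the vehicle. The protocol calls the wild-type mice their littermates, although the strain labels differ, and its HBEGF injections were not analysed here. All had been on standard diet for 5 to 8 weeks. FGF23 is a bone hormone that acts on the kidney, and klotho, encoded by Kl, is the co-receptor it needs. KL null and the strain label go together, so their effects cannot be told apart. The labels give 4 replicates per group without saying whether each was a separate mouse, so p-values measure only the spread between these samples, and the number of arrays limits their precision. Values are log2 signals, on which a difference of 1 is a doubling, given as mean ± SD over 4 arrays.

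EGR proteins are zinc-finger activators that bind GC-rich sites. Their genes are classic immediate early genes: growth factors activate ERK, ERK phosphorylates ETS-family partners of serum response factor, and these drive Egr1 from CArG boxes within minutes, with no new protein needed. NAB proteins do not bind DNA themselves. They dock on EGR proteins and bring in the NuRD chromatin remodelling complex, and Nab2 is itself a known EGR target, which makes a negative feedback loop.

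Promoter sequences of the members, with the letters that these factors read, are given first, to be read beside the values of each gene. RefSeq promoter windows (GRCm38.p6) were held for 4 of the 6 members, Egr2, Egr4, Nab1 and Nab2. The 250 bases before each annotated start were searched on both strands for 6 motifs, with the following shares of all 32851 windows that hold each. The EGR site GCGNGGGCG was in 4.7%, its shorter core GCGTGGGC in 1.37%, the CArG box in 1.47%, the CRE half-site TGACG in 17.8%, the ETS site CCGGAA in 12% and the AP-1 site TGANTCA in 6.75%. The core lies within those EGR sites that have T at the N.

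Nab2 has 1 window, on the minus strand of chr10:127666704-127666953. Its only match is the EGR core on the opposite strand, in capitals, 32 to 25 bases before the start.
Nab2: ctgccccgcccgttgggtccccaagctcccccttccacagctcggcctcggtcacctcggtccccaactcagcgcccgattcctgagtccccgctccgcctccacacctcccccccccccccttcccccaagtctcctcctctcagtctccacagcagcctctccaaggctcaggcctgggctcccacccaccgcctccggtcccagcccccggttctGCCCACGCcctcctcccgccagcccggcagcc

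Nab1 has 1 window, on the minus strand of chr1:52500449-52500698, with 3 EGR sites and a CRE half-site. The sites are shown in capitals within 30 bases each. They lie 141 to 133 bases before the start (chr1:52500571-52500600), 109 to 101 (chr1:52500539-52500568) and 38 to 30 (chr1:52500468-52500497).
Nab1 site 1: cgccccgcggcCGCCCACGCcgggatctgc
Nab1 site 2: cactcggccgcGCGTGGGCGggagccggag
Nab1 site 3: cgcggggcgggGCGGGGGCGgcggaggtgg

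Egr2 has 5 windows on the plus strand of chromosome 10, since its transcripts start at several places. In 4 of them there is a CArG box, of 2 kinds of letters, shown in capitals within 30 bases (chr10:67537484-67537513 and chr10:67537787-67537816). The windows with box 2 overlap and hold the same box, along with CRE half-sites. The window with box 1 also holds ETS sites, and the window without a box holds no searched motif.
Egr2 box 1: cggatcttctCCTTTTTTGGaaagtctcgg
Egr2 box 2: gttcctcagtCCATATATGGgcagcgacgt

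Egr4 has 1 window, on the minus strand of chr6:85513590-85513839, with 2 CRE half-sites on the opposite strand, in capitals.
Egr4: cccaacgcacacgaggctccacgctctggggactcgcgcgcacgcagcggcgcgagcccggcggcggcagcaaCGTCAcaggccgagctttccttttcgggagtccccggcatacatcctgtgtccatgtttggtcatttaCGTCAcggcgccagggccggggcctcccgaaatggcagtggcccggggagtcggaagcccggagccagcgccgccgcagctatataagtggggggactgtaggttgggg

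These matches are letters in a window and show no binding. The window of Nab2 held fewer matches to the EGR letters than that of Nab1. The motifs were chosen after the windows were read, so nothing is read from this difference.

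The first comparison set wild-type kidneys taken after FGF23 beside those taken after saline. Of the 6 members 2 rose, Egr1 and Nab2. Of all 19938 genes 0.0853% were called, 0.0802% higher and 0.00502% lower. A gene is called when its limma p, adjusted by Benjamini-Hochberg over all 19938 genes, is below 0.05. This contrast chose the family, so nothing is read from that count. In 3 members, Egr1, Egr2 and Nab2, all 4 FGF23 arrays lay above all 4 vehicle arrays, which 4.09% of all genes did. All 6 members had a positive difference (58.7% of all genes), with a median of 0.30 against 0.04 over all genes. For the same reason nothing is read from these counts or from the median.

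Egr1 encodes the member best known from serum and ERK stimulation. It was at 6.33, 6.27, 5.98 and 6.06 on the vehicle arrays of replicates 1 to 4. It was at 8.93, 9.17, 9.56 and 9.69 on the FGF23 arrays. KL null arrays had 6.71, 6.54, 6.59 and 6.41. The lowest FGF23 array was thus far above the highest of the other 8. Egr1 rose by 3.18 on the log2 scale (SE 0.144), a 9.05-fold increase, from 6.16 ± 0.17 to 9.34 ± 0.35 (SD, n = 4). This was the largest of the 19938 differences. Next came Plk3, a polo-like kinase, at 1.71 and Hbegf, an EGF receptor ligand, at 1.63. Over the 24 alternative settings its log2 difference ran from 3.06 to 3.47.

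**Figure D1:**
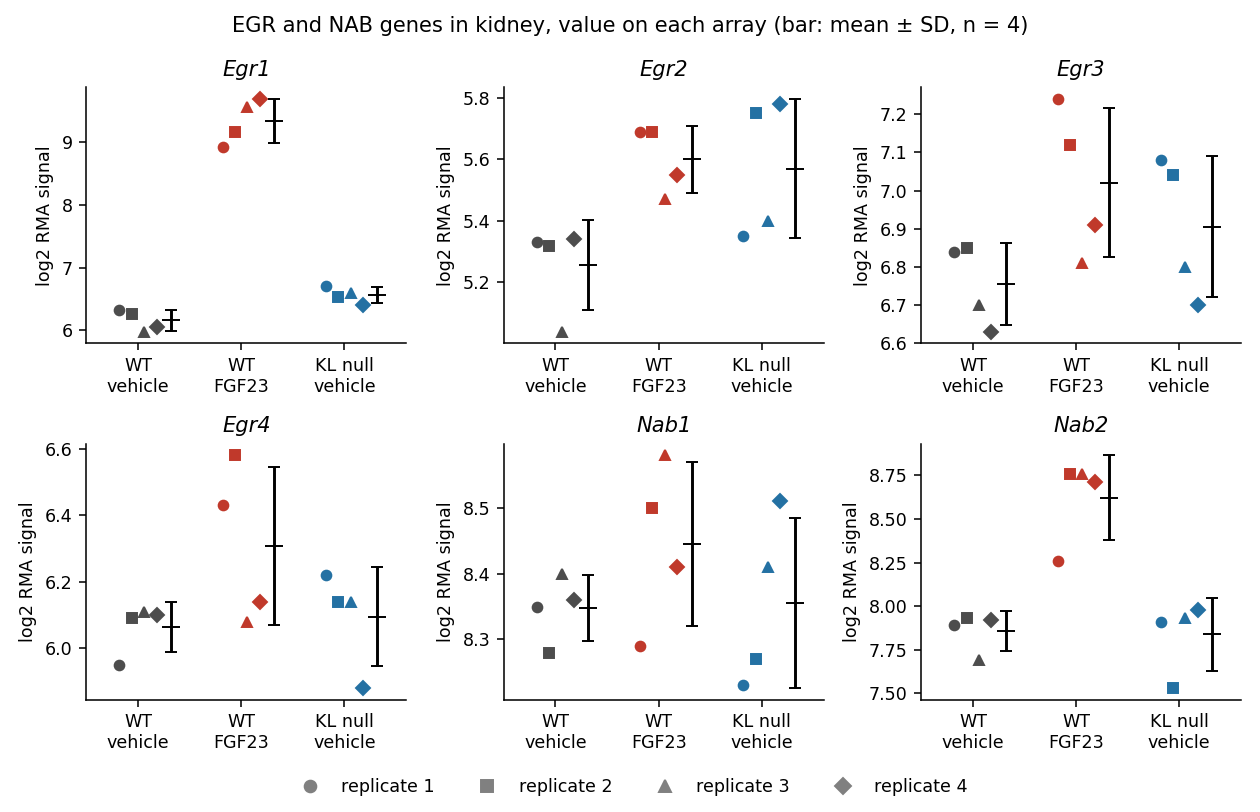
Log2 RMA signal (y axis, a separate scale per gene) of the 6 members on each of the 12 arrays, by group (x axis), with the replicate number as the symbol and mean ± SD (n = 4) as the bar. Egr1 sits at 8.93 to 9.69 with FGF23 and at or below 6.71 on the other 8 arrays, and Nab2 at 8.26 to 8.76 with FGF23 and at or below 7.98 on the others.

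Nab2, the inducible corepressor, was at 7.89, 7.93, 7.69 and 7.92 with vehicle. With FGF23 it was at 8.26, 8.76, 8.76 and 8.71, and in KL null at 7.91, 7.53, 7.93 and 7.98. All 4 FGF23 arrays lay above the other 8, with replicate 1 apart from the other 3. The rise was 0.77 on the log2 scale (SE 0.125), or 1.70-fold, from 7.86 ± 0.11 to 8.62 ± 0.24, and ranked 17 among the 19938 differences. Over the 24 alternatives its difference ran from 0.69 to 0.89. As a limit and not as a test, since these values chose the family, the fit across all genes called Nab2 in 11 of the 24. Of the 12 fits that left out 1 array, it was called in 3, without WT FGF23 replicate 1 and without KL null replicates 2 and 4. Leaving out any one of WT FGF23 replicates 2, 3 and 4, WT vehicle replicates 1 to 4 and KL null replicates 1 and 3 ended the call, with differences of 0.71 to 0.79. So did median centring (0.69), the fit of only the 2 groups, the unmoderated model and the replicate block.

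Nab1, the corepressor usually described as constitutive, was at 8.35, 8.28, 8.40 and 8.36 with vehicle and at 8.29, 8.50, 8.58 and 8.41 with FGF23. The groups overlapped, and the log2 difference was 0.10 (SE 0.0875). In KL null it was at 8.23, 8.27, 8.41 and 8.51. Side by side, the FGF23 differences of the 2 corepressor genes were 0.77 for Nab2 and 0.10 for Nab1, and they were not tested against each other.

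Egr2, known for myelinating Schwann cells and lymphocytes, was at 5.33, 5.32, 5.04 and 5.34 with vehicle and at 5.69, 5.69, 5.47 and 5.55 with FGF23. The groups did not overlap, and the log2 difference was 0.34 (SE 0.112), or 1.27-fold, which was not called. After a further quantile normalization the difference was 0.22, and the groups still did not overlap.

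Egr3, a member also induced by growth factors, was at 6.84, 6.85, 6.70 and 6.63 with vehicle and at 7.24, 7.12, 6.81 and 6.91 with FGF23, a difference of 0.26 (SE 0.112). Egr4, best known from neurons, was at 5.95, 6.09, 6.11 and 6.10 and at 6.43, 6.58, 6.08 and 6.14, a difference of 0.24 (SE 0.112). Neither was called, and both overlapped between the groups. For both genes, WT FGF23 replicates 1 and 2 carried the difference. These 2 arrays had the lowest standard deviation of all log2 values, 2.166 and 2.167, where the other 10 ran from 2.195 to 2.281. Then came replicates 1 and 2 of KL null, with 2.195 and 2.217. Their Egr3 values of 7.08 and 7.04 were also above those of the other KL null replicates, 6.80 and 6.70. Egr4 in KL null did not split in this way, with 6.22, 6.14, 6.14 and 5.88 on replicates 1 to 4. With vehicle, Egr3 was at 6.85 on the array of lowest spread (2.23) and at 6.84 on that of highest spread (2.275). The part of array spread in these differences was not tested. Without the 2 FGF23 arrays the difference was 0.10 for Egr3 and 0.05 for Egr4. With array spread as a covariate it was 0.04 for Egr3 and 0.02 for Egr4, and a further quantile normalization left 0.26 and 0.18. Spread went partly with the group, at 2.166 to 2.248 with FGF23 and 2.23 to 2.275 with vehicle. This covariate can therefore take up part of a group difference. Egr1 ran the other way: WT FGF23 replicates 1 and 2 had its lowest FGF23 values, 8.93 and 9.17, against 9.56 and 9.69. Nab2 followed neither order, with 8.26 on replicate 1 and 8.76 on replicate 2. Without WT FGF23 replicates 1 and 2 the differences of Egr1 and Nab2 were 3.47 and 0.88.

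**Figure D2:**
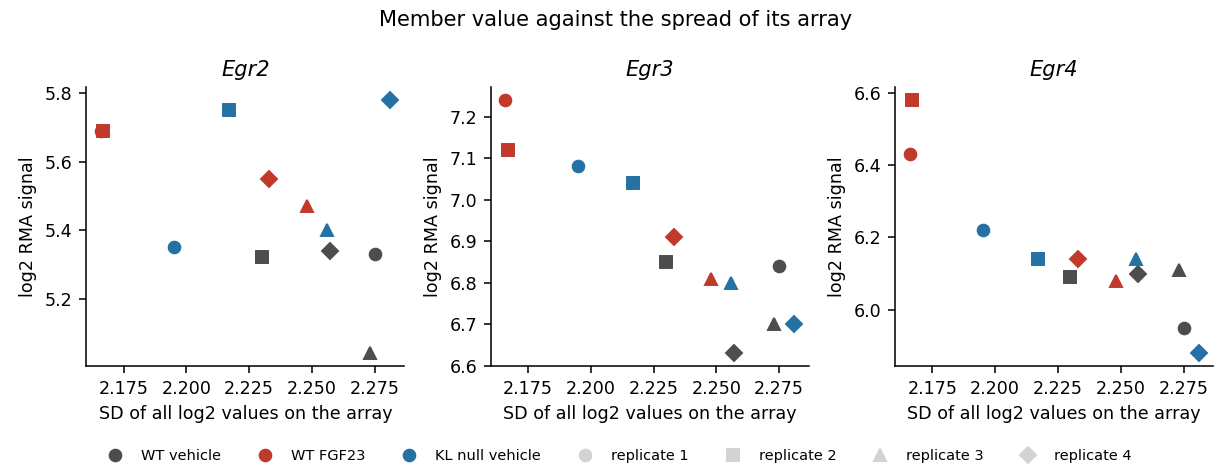
Log2 RMA signal of Egr2, Egr3 and Egr4 (y axes) against the standard deviation of all log2 values on the same array (x axes), with colour for the group and symbol for the replicate. For Egr3 and Egr4 the arrays of low spread, WT FGF23 replicates 1 and 2 at 2.166 and 2.167, have the highest values (7.24 and 7.12 for Egr3, 6.43 and 6.58 for Egr4).

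**Figure D3:**
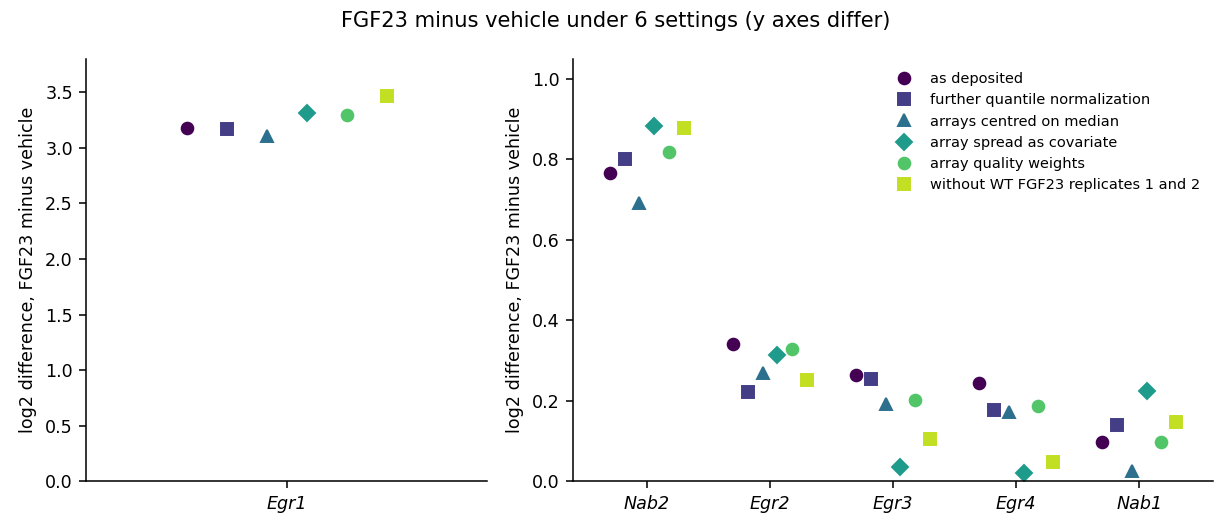
Log2 difference between FGF23 and vehicle (y axes, which differ between the panels and start at 0) of each member under 6 settings (symbols). Egr1 stays between 3.10 and 3.47 and Nab2 between 0.69 and 0.89, whereas Egr3 falls from 0.26 to 0.04 and Egr4 from 0.24 to 0.02 with array spread as a covariate. Spread goes partly with the group, so this covariate can take up part of a group difference.

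The second comparison set KL null kidneys beside wild-type ones, all from saline-injected mice. Kl, the targeted gene, was at 10.67, 10.45, 10.74 and 10.58 in wild type with vehicle and at 9.66, 9.76, 9.66 and 9.80 in KL null, a fall of 0.89 on the log2 scale (limma adjusted p = 1.75e-05). The part of Kl that its probe set covers was not given in the sources used here. None of the 6 members was called (0 of 6 by limma, against 8.01% of all genes called, 3.58% higher and 4.44% lower), and 2 of 6, Egr1 and Egr2, had an unadjusted p below 0.05, as did 21.3% of all genes. With arrays centred on their median, 25.7% of all calls in this comparison were higher, against 44.6% as reported. Of the 6 members 5 had a positive difference (56.2% of all genes). Egr1 and Egr2 were also the members whose KL null arrays all lay above the vehicle arrays, which 6.35% of all genes did.

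Egr1 was at 6.41 to 6.71 in KL null, above the vehicle range of 5.98 to 6.33. The log2 difference was 0.40 (SE 0.144, 95% interval 0.10 to 0.71 for this gene alone), or 1.32-fold, and did not pass over all genes (limma adjusted p = 0.106). Its direction held in all 24 alternatives (0.34 to 0.46), and the groups did not overlap after a further quantile normalization either. It was called in 2 of the 24, in the fit of only the 2 groups (limma adjusted p = 0.0341) and without WT FGF23 replicates 1 and 2 (0.0230), where the adjusted p over the 24 ran from 0.023 to 0.277. Both settings remove FGF23 arrays, in which the SD of Egr1 was 0.35, against 0.17 with vehicle and 0.12 in KL null. The KL null level of Egr1, 6.56 ± 0.12, was 2.77 below that with FGF23. In the order of levels, vehicle and KL null were therefore neighbours that the test over all genes did not part, and FGF23 stood apart.

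Egr2 was at 5.35, 5.75, 5.40 and 5.78 in KL null, against 5.04 to 5.34 with vehicle. Replicates 1 and 3 were just above the vehicle range and replicates 2 and 4 well above it. The log2 difference was 0.31 (SE 0.112, limma adjusted p = 0.107, 0.049 to 0.308 over the 24 alternatives), and it was called in 1 alternative, without KL null replicate 1 (0.049). After a further quantile normalization the groups overlapped, with a difference of 0.24. The level of Egr2 in KL null, 5.57 ± 0.23, was close to that with FGF23, 5.60 ± 0.11.

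Egr3 (0.15, 95% interval -0.09 to 0.39), Egr4 (0.03, -0.21 to 0.27), Nab1 (0.01, -0.18 to 0.19) and Nab2 (-0.02, -0.29 to 0.25) overlapped between KL null and vehicle. Their limma adjusted p-values were 0.506, 0.918, 0.975 and 0.957. Both comparisons share the 4 vehicle arrays, so they are not independent.

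**Figure D4:**
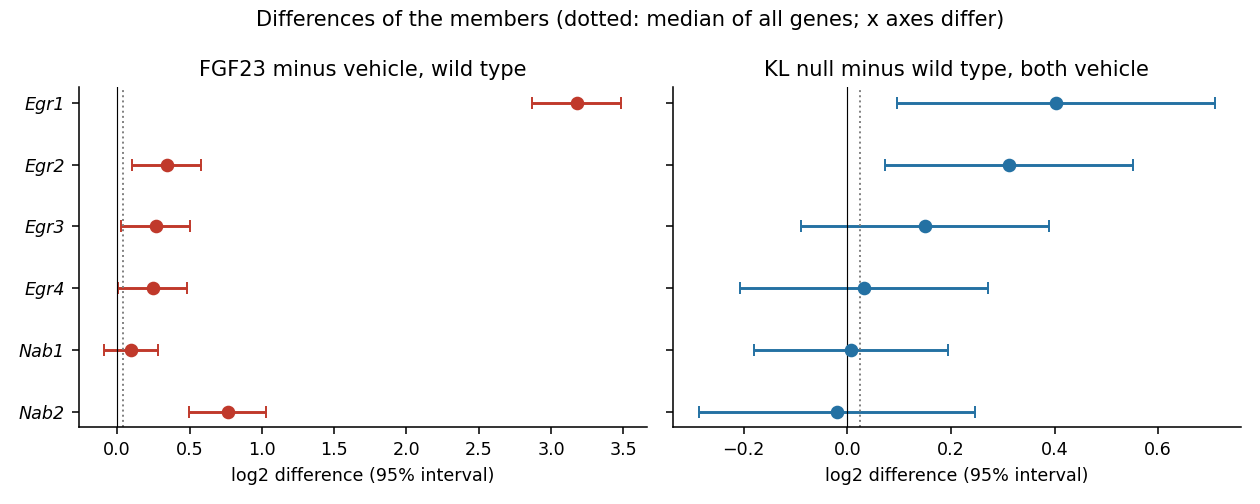
Log2 differences of the 6 members with 95% intervals for each gene alone (x axes, which differ), for FGF23 minus vehicle on the left and KL null minus wild type on the right, with the median of all genes dotted. The left contrast chose the family, so its intervals describe spread and are not a test. On the left Egr1 (3.18) and Nab2 (0.77) stand away from the other 4 members, which lie between 0.10 and 0.34, and on the right no member exceeds 0.40.

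Markers of other cells were read beside these values. In whole kidney RNA, fewer cells of a type and less RNA per cell cannot be told apart. Kidney markers were at high levels on the log2 scale, with means per array of 11.83 to 12.35 for 4 proximal tubule genes. Of 39 markers of 12 cell types, 0 were called in FGF23 against vehicle by limma, where 0.0853% of all genes were. An unadjusted p below 0.05 was found for 5 of the 39, and for 15.4% of all genes. In KL null, where 3.58% of all genes rose and 4.44% fell, 3 markers rose and 6 fell. Of the latter, 3 were among the 4 proximal tubule genes. The 3 that rose were the macrophage markers Cd68 (1.06), Itgam (0.88) and Lyz2 (1.71), while Csf1r fell by 0.55 and Adgre1 had 0.25. The mean over the 5 macrophage markers per array was 6.67 to 7.19 with vehicle, 6.35 to 6.93 with FGF23 and 6.95 to 7.91 in KL null. Their part in the KL null values of Egr1 and Egr2 was not tested. Of 5 T lymphocyte markers, 0 were called in either comparison by limma, and 0 had an unadjusted p below 0.05. Of 2 measured B lymphocyte markers 0 were called in either comparison by limma, and 0 with FGF23 and 1 in KL null had an unadjusted p below 0.05, with a median difference of -0.17 in KL null. Of 3 measured Schwann cell and nerve markers 0 were called in either comparison, and 0 with FGF23 and 1 in KL null had an unadjusted p below 0.05. Among 3 adrenal markers 0 were called in either comparison, and 2 with FGF23 and 0 in KL null had an unadjusted p below 0.05. The median difference of the adrenal markers with FGF23 was 0.295, against 0.038 over all genes. In KL null 8.01% of all genes were called and 21.3% had an unadjusted p below 0.05. With so few markers, the absence of calls is no result about these cell types.

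The genes whose pattern was most like Egr1 over the 12 arrays, by Pearson's r, were Ier2 (0.958), Hbegf (0.949), Nab2 (0.922), Sertad1 (0.909) and Junb (0.905). For Nab2 they were Spry2 (0.928), Egr1 (0.922), Hbegf (0.918), Bhlhe40 (0.913) and Phyhipl (0.889). These r values describe the 12 arrays, in which the 4 FGF23 arrays form a cluster of their own. With group means removed, the r between Egr1 and Nab2 was 0.537, and 1163 genes had a higher one with Egr1.

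Genes around the EGR and NAB proteins were counted in 5 lists of 108 entries, 96 of them measured. Of 15 measured regulators of Egr transcription (serum response factor, its ETS and MRTF partners, CREB and the ERK cascade), 0 were called after FGF23 by limma (1 at an unadjusted p below 0.05, which 15.4% of all genes had), with a median of 0.01 against 0.04 for all genes. The 2 of smallest p were Elk1, an ETS partner of serum response factor (0.16, adjusted p = 0.345), and Rps6ka3, an ERK-activated kinase (-0.19, 0.317). In KL null 1 of 15 was called, where 8.01% of all genes were: Srf, serum response factor itself, fell by 0.49 from 7.82 ± 0.15 to 7.34 ± 0.22 (limma adjusted p = 0.0136). It was called in 23 of 24 alternatives, and lost without WT vehicle replicate 1 (limma adjusted p = 0.0546). Egr1 was not called in KL null (limma adjusted p = 0.106), and its link with Srf was not tested.

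Of 16 NuRD subunits and other partners of NAB and EGR proteins, 0 were called after FGF23 by limma (2 at an unadjusted p below 0.05), with Cited2, a transcriptional coregulator (-0.29, adjusted p = 0.305), and Hdac2, a histone deacetylase of NuRD (-0.20, 0.278), smallest in p. In KL null 2 of 16 fell and 0 rose, where 4.44% of all genes fell and 3.58% rose, with a median of -0.09 against 0.03. They were Chd3, a NuRD helicase, which fell by 0.54 from 9.43 ± 0.09 to 8.89 ± 0.05 (limma adjusted p = 0.00132), and Mbd3, which fell by 0.34 (0.0315). Chd3 was called in 24 of 24 alternatives and Mbd3 in 19 (limma adjusted p of 0.00933 to 0.11), lost without any one of WT vehicle replicates 1 and 3 and KL null replicates 2 and 3, and in the fit of only the 2 groups.

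Of 28 measured genes reported as EGR targets, 2 rose with FGF23, Nab2 and the AP-1 gene Junb (0.73), and 0 fell, with a median of 0.12 against 0.04. Of all genes 0.0802% rose. The list was drawn up with earlier results of these arrays known, so nothing is read from this count. Nab2 is one of the members, and Junb was called in 9 of 24 alternatives (0.63 to 0.82 on the log2 scale), among them none that left out an FGF23 array. In KL null 3 of the 28 rose and 0 fell, with a median of 0.07 against 0.03. Of all genes 3.58% were called higher there and 8.01% in either direction. The list was not tested as a set, so 3 of 28 is no result about EGR targets as a group. The 3 were the adhesion receptor Cd44 (0.72, limma adjusted p = 0.00517), the monocyte chemokine Ccl2 (0.47, 0.0205) and the stress gene Gadd45b (0.41, 0.0268). Cd44 was called in 24 of 24 alternatives, and Ccl2 and Gadd45b in 16 each (adjusted p up to 0.0692 and 0.076 by limma). Ccl2 and Gadd45b were each called in 6 of the 12 fits that left out 1 array and in 10 of the 12 others. Leaving out any one of WT vehicle replicates 1 and 3 or KL null replicates 2, 3 and 4 ended both calls, as did WT vehicle replicate 2 for Ccl2 and replicate 4 for Gadd45b. Cd44 and Ccl2 moved beside the macrophage markers given above, whose part in them was not tested. Of 11 zinc-finger factors with related binding sites, 0 were called with FGF23 by limma (3 at an unadjusted p below 0.05), with Klf6 (0.27, adjusted p = 0.286) and Klf10 (0.45, 0.304) smallest in p. In KL null, where 3.58% of all genes rose, 1 of the 11 rose, Sp4 (0.56, limma adjusted p = 0.0298). It was called in 17 of 24 alternatives (up to 0.106), and not without WT vehicle replicate 1 or 3 or KL null replicate 2, 3 or 4. Of the 12 alternatives that did not leave out a single array, 10 called it.

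Among 26 other serum-response early genes, 5 rose with FGF23 (Dusp6, Zfp36, Ier2, Dusp4 and Spry4) and 0 fell, 24 had a positive difference, and the median was 0.33 against 0.04. Of all genes 0.0802% rose and 58.7% had a positive difference. Dusp6 was called in 24 of 24 alternatives, Ier2 in 23, Zfp36 in 20, Dusp4 in 9 and Spry4 in 3. Of these 5, Dusp6, an ERK phosphatase, was also called in KL null, in the opposite direction. It fell by 0.64 there (SE 0.0838, limma adjusted p = 0.000389), with all 4 KL null arrays below the vehicle arrays. Egr1 was not called in KL null (limma adjusted p = 0.106), and its arrays there lay above the vehicle arrays, as in 6.35% of all genes. Myc, a growth-related transcription factor, rose by 0.49 in KL null (0.00924). Of the list, 24 of 26 were not called in KL null, where 8.01% of all genes were called, and the median was 0.04 against 0.03. The list was drawn up with earlier results of these arrays known, so its FGF23 count is not independent evidence.

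**Figure D5:**
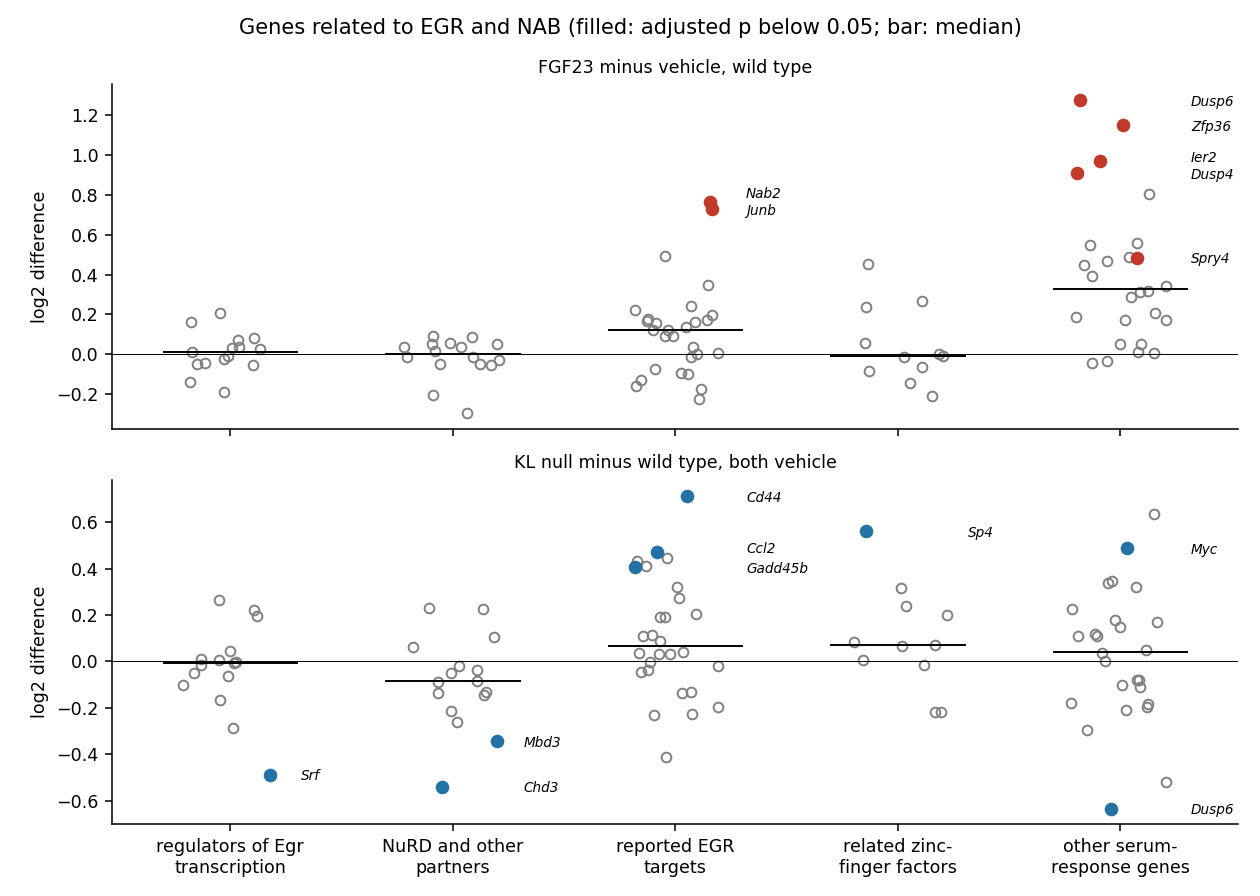
Log2 differences (y axes) of the 96 measured genes of 5 lists (x axis), for FGF23 minus vehicle above and KL null minus wild type below, with called genes filled and named and the list median as a bar. With FGF23 the called genes are Nab2, Junb and 5 serum-response genes, all higher, and in KL null Srf, Chd3, Mbd3 and Dusp6 are lower while Cd44, Ccl2, Gadd45b, Sp4 and Myc are higher.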

How the data were processed

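The deposited log2 values, 1 per probe set and array, are RMA signals. The submitters' processing notes name Partek 6.2 as the authors' software. RMA corrects background, brings arrays to a common distribution and summarises probes, and it compresses the folds of dim probe sets. Its probe-level options are not given in the sources used here, and no probe could be set against its background. Of 28853 probe sets, 21789 had 1 gene symbol in the platform annotation, 1621 had several and 5443 had none. The first kind gave 19938 genes, each represented by its probe set of highest mean. A limma 3.58.1 model (R 4.3.3, lmFit and eBayes, two-sided) was fitted with 3 group means over 12 arrays with 9 residual degrees of freedom. The fit was tested on simulated data. Array medians ran from 6.15 to 6.29. The members and gene lists were chosen with earlier results of these data known. Named are the 6 members, Kl, the called genes of each list (at most 5, otherwise the 2 of smallest p) and the 5 genes most like Egr1 and Nab2. Other genes (Plk3, the macrophage markers) were named after their values were seen. In all, 24 alternatives were tried. Promoter windows come from RefSeq (GRCm38.p6), and the motifs were chosen after the windows were read. Python 3.11.15, pandas 2.3.3 and matplotlib 3.10.9 made tables and figures.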

Additional observations from a re-analysis of the deposited data

Results flagged for a closer look

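In 5 of 21 groups of 4 arrays (the members and Kl in 3 groups each), the gap between an end array and its neighbour took more of the range than Dixon's 95% critical value for 4 samples, and chance does this in about 1 of 20 groups. Nab2 had such a lowest array in every group. The share of the range was 0.833 with vehicle, for replicate 3 at 7.69 against 7.89 to 7.93. It was 0.900 with FGF23, for replicate 1 at 8.26 against 8.71 to 8.76, and 0.844 in KL null, for replicate 2 at 7.53 against 7.91 to 7.98. The others were Egr2 on vehicle replicate 3, at 5.04 against 5.32 to 5.34 (0.933), and Egr4 on vehicle replicate 1, at 5.95 against 6.09 to 6.11 (0.875).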

How the results depend on the processing

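The calls over all genes after FGF23, 17 as reported, were 4 to 14 with 1 array left out. They were 10 after a further quantile normalization, 6 with median centring (5 of them higher, against 16 of 17), 11 with array spread as a covariate, 2 in the unmoderated model, 7 with only the 2 groups and 8 without the 2 arrays of lowest spread. Called members, 2 as reported, were 1 with median centring, in the unmoderated model and with only the 2 groups, and 1 to 2 with 1 array left out. For KL null the count of 1598 was 2852 with array quality weights and 828 to 1728 with 1 array left out, lowest without WT vehicle replicates 3 (828) and 1 (831) and KL null replicates 3 (856) and 2 (1003). Called members, 0 as reported, were 1 with only the 2 groups, 1 without the 2 arrays of lowest spread (Egr1 in both) and 0 to 1 with 1 array left out. Some KL null differences near 0 changed sign. Egr4 (0.03) was -0.025 after a further quantile normalization, -0.022 with median centring, -0.055 with array spread as a covariate and -0.009 to 0.104 with 1 array left out. Nab1 (0.01) was -0.048 with median centring and -0.044 to 0.049 with 1 array left out. Nab2 (-0.02) was 0.026 with array spread as a covariate, 0.008 with array quality weights and -0.076 to 0.082 with 1 array left out. With the replicate block, 6 genes and 1 member (Egr1) were called after FGF23. For KL null 1548 genes were called with it. Deviations of same-numbered arrays from their group means had r = -0.216 to 0.191 between FGF23 and vehicle and -0.137 to 0.169 between KL null and vehicle, so in neither comparison did all 4 pairs exceed 0.1, and the numbers were not taken to pair the samples. Between FGF23 and KL null, which were not tested against each other, all 4 did (0.143 to 0.259). Differently numbered arrays of these groups ran from -0.219 to 0.238, so high values were not limited to same numbers. The cause of these shifts was not tested.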

Other observations

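The protein-coding genes next to each member in RefSeq (GRCm38.p6) were looked up as a check of position. Stat6, a cytokine-activated transcription factor whose gene overlaps Nab2, had a log2 difference of 0.02 with FGF23 (SE 0.0854), where Nab2 had 0.77. Nemp1, on the other side of Nab2, had 0.08 with FGF23 and rose by 0.46 in KL null (limma adjusted p = 0.00349), where Nab2 had -0.02. Beside Egr1, Reep2 had 0.46 with FGF23 (adjusted p = 0.241 by limma) and Etf1 had -0.12 (0.597). Fbxo41, next to Egr4, had 0.45 with FGF23 (limma adjusted p = 0.252), more than Egr4 itself (0.24). In KL null Bin3, next to Egr3, rose by 0.31 (limma adjusted p = 0.0462) and Nemp2, next to Nab1, rose by 0.41 (0.015), where Egr3 and Nab1 had 0.15 and 0.01. Nemp1, Bin3 and Nemp2 were the only measured neighbours called in KL null, where 3.58% of all genes were called higher and 8.01% in either direction. Of the 11 measured neighbours 0 were called with FGF23 by limma, where 0.0853% of all genes were.

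With group means removed, the genes most like Egr1 over the 12 arrays were Fuca2 (r = 0.968), Mageh1 (0.927), Fmn1 (0.922), Osbpl8 (0.919) and Nipsnap3b (0.912). For Nab2 they were Fhdc1 (0.925), Vmn1r174 (0.917), Zfp882 (0.894), Serpinb3c (0.893) and Sccpdh (0.883).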
